A study of Mus musculus with 12 samples.

Results

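A list of 10 chemokine genes that lung epithelial cells can express was followed across the 12 libraries of sorted mouse AT2 cells, the surfactant-secreting cells of the alveolus. The genes were *Cxcl15*, *Cxcl5*, *Cxcl1*, *Cxcl2*, *Cxcl10*, *Cxcl16*, *Cxcl12*, *Ccl20*, *Ccl2* and *Cx3cl1*. They were given as a list of names and not picked from measured values by a rule. The list was nevertheless chosen with earlier results of these data known, so it is not independent of them. Each of the 10 names matched 1 of the 21878 rows of the expression table. All but *Cxcl12* reached 1 FPKM in 3 or more libraries and were among the 10675 genes tested. FPKM are fragment numbers divided by transcript length and by the library's mapped total, so that levels of different genes can be set side by side per length.

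Chemokines are small secreted or membrane-held proteins that direct the migration of leukocytes through G protein-coupled receptors. *Cxcl1*, *Cxcl2*, *Cxcl5* and the lung-enriched *Cxcl15* (lungkine) encode attractants of neutrophils, and *Cxcl1*, *Cxcl2* and *Cxcl5* act through Cxcr2. *Ccl2* draws monocytes through Ccr2, *Ccl20* draws Ccr6-bearing lymphocytes and dendritic cells, *Cxcl10* is an interferon-induced attractant of Cxcr3-bearing T cells, and *Cxcl12* is the ligand of Cxcr4. *Cxcl16* and *Cx3cl1* (fractalkine) are made as membrane proteins that bind Cxcr6 and Cx3cr1, and the proteases Adam10 and Adam17 release them.

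The libraries form 4 groups of 3. AT2-PBS and AT2-BLM were labelled wild type and described in the study as cells of Atg5f/f mice given PBS or bleomycin (BLM, which damages alveolar epithelium) into the trachea at 2 U/kg. The groups Atg5-/- AT2-PBS and Atg5-/- AT2-BLM came from Nkx2.1-Cre;Atg5f/f mice with the same treatments. Nkx2.1-Cre acts in the epithelium of the lung from development on, as well as in other sites that express Nkx2.1, so deletion of the autophagy gene *Atg5* was not limited to AT2 cells or to the time of injury. The strain was labelled C57BL/6 and the mice were 8 to 12 weeks old, with day 14 stated for 3 of the groups and no day stated for Atg5-/- AT2-PBS. The sort kept EpCAM+ cells that were negative for CD24, Sca-1, CD31, CD34 and CD45, a gate meant to leave out leukocytes and endothelium. The sources used here do not say whether a library held cells of 1 mouse or of several, so the p-values measure the spread between these libraries.

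*Atg5* was listed at 6.01 to 12.5 FPKM in AT2-PBS, 9.97 to 11.1 FPKM in AT2-BLM, 6.72 to 10.1 FPKM in Atg5-/- AT2-PBS and 8.37 to 8.84 FPKM in Atg5-/- AT2-BLM, and these whole-gene values also count exons that Cre leaves in place. AT2 markers *Sftpb*, *Sftpa1* and *Sftpd* were high in every library, whereas *Sftpc*, the defining AT2 gene, was listed at 0 in 11 of 12, so a 0 in this table can be a failed estimate. Y-linked mRNAs summed to 14.2 to 20.9 FPKM in 5 libraries (AT2-PBS replicates 2 and 3, AT2-BLM replicate 3, and Atg5-/- AT2-BLM replicates 2 and 3) and to at most 0.733 FPKM in the other 7, although the study states male mice. Transcripts of other cell types stood apart in Atg5-/- AT2-PBS, where 8 pan-leukocyte markers summed to 809 to 1104 FPKM against 72.1 to 132 FPKM in AT2-PBS. In bulk RNA, fewer cells of a type and less RNA per cell cannot be told apart.

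The sequence just before the start site is shown for 5 of the genes, because 4 of them (*Cxcl1*, *Cxcl2*, *Cxcl10* and *Ccl20*) are among the genes that varied most between libraries and hold a kappaB consensus, the binding sequence of NF-kappaB factors, while *Cxcl15* is the steady and abundant one. The 250 bases before the start come from RefSeq on GRCm38.p6, which held 7 of the 10 genes (not *Cxcl5*, *Cxcl16* or *Ccl2*). They are written 5′ to 3′ on the gene's own strand, with the kappaB consensus in capitals, except in *Cxcl15*, where the capitals mark TATAAA.
Cxcl1, chr5:90890995-90891244, plus strand: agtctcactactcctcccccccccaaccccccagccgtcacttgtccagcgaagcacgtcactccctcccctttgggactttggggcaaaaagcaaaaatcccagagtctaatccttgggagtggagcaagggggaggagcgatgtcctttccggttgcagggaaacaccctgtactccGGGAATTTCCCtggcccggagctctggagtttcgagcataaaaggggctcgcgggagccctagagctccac
Cxcl2, chr5:90903649-90903898, plus strand: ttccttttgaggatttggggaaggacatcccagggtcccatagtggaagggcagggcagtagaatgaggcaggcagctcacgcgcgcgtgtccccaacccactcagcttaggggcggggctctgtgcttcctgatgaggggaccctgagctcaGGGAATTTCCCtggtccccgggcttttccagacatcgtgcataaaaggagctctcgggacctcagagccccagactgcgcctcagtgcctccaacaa
Ccl20, chr1:83116516-83116765, plus strand: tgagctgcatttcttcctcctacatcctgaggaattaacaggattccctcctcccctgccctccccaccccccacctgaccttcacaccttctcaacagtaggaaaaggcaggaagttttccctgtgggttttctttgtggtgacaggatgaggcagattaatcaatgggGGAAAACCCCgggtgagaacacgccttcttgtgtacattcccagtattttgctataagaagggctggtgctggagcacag
Cxcl10, chr5:92348890-92349139, minus strand: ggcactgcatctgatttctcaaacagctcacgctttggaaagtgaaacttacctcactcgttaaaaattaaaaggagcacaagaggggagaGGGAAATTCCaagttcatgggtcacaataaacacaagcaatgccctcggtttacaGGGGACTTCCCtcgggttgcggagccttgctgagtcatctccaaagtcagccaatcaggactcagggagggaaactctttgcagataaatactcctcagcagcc
Cxcl15, chr5:90794284-90794533, plus strand: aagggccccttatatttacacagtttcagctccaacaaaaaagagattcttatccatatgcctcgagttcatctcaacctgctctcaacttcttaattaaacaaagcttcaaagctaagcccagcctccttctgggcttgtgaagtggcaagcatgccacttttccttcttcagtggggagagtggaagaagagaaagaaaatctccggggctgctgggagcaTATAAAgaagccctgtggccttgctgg
In *Cxcl1* and *Cxcl2* the same run of letters lay at -71 to -61 and at -97 to -87, counted from the start site with -1 as the base before it, and read as the consensus on both strands in overlapping frames. *Cxcl10* held 3 matches, of which 2 overlapped, and *Ccl20* held 1 on the minus strand. The consensus was searched on both strands over the whole 300 bases of the table, and 8.46% of all 32851 promoters held it, against 4 of the 7 listed here. A pair of GAAA blocks 2 bases apart (an interferon-stimulated response element) was found only in *Cxcl10* among the 7, at -213 to -204, and in 3.44% of all promoters. The AP-1 letters TGANTCA also occurred only in *Cxcl10* (7.81% of all promoters), and TATAAA in *Cxcl15* and *Cx3cl1* (13.6% of all promoters). These matches are descriptions of the letters and not of bound sites. By RefSeq gene order, *Cxcl5* and *Cxcl15*, *Cxcl1*, *Cxcl2* lie in 1 cluster on chromosome 5, together with *Ppbp*, *Pf4* and *Cxcl3*, and *Cxcl10* lies elsewhere on the same chromosome.

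*Cxcl15* made up most of the chemokine mRNA. Its FPKM were 75.1% to 98.3% of the summed FPKM of the 10 genes, and its median over the 12 libraries, 1213 FPKM, was at percentile 99.7 of the medians of the genes tested. The medians of *Cxcl16*, *Cxcl1*, *Cxcl2* and *Cx3cl1* were 20.1, 18.5, 12.5 and 10.2 FPKM. Those of *Cxcl5*, *Cxcl10*, *Ccl2* and *Ccl20* were between 3.21 and 9.83 FPKM, and *Cxcl12* was near the bottom at 0.323 FPKM. The genes differed in how steady they were. The SD of log2(FPKM + 1) within groups was 0.17 for *Cxcl16*, 0.18 for *Cxcl15* and 0.37 for *Cx3cl1*, which are percentiles 13.3, 17.6 and 75.0 of the genes tested. It was 0.86 to 1.86 for *Cxcl10*, *Ccl2*, *Ccl20*, *Cxcl2*, *Cxcl5* and *Cxcl1*, all at or above percentile 97.2.

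**Figure D1:**
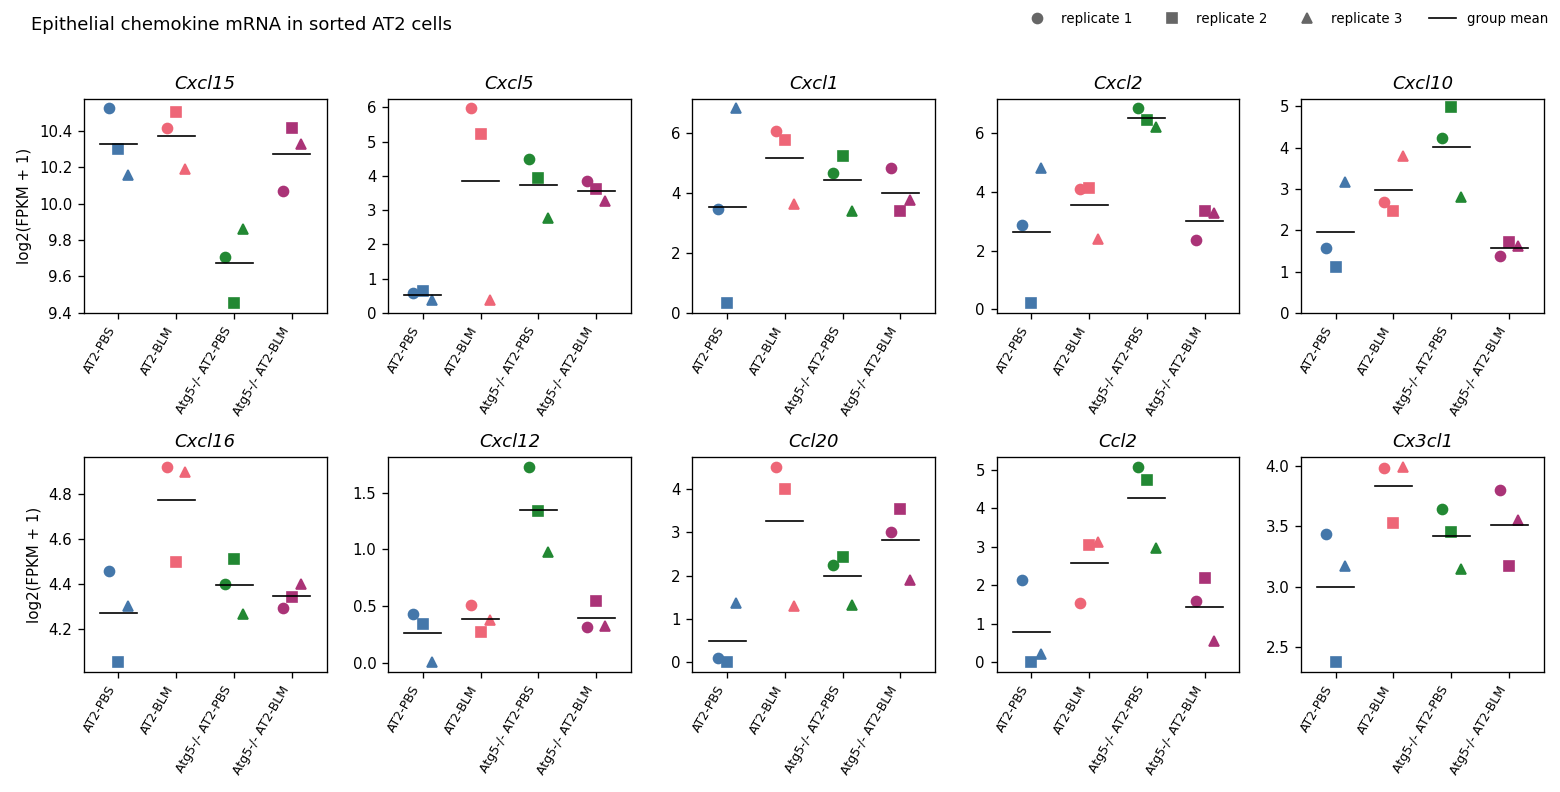
Level of each of the 10 chemokine genes as log2(FPKM + 1) in each library, with 1 panel per gene and its own vertical scale (not starting at 0 for Cxcl15, Cxcl16 and Cx3cl1). Symbols are replicates 1 to 3 and bars are group means. Cxcl15 was lowest in all 3 Atg5-/- AT2-PBS libraries, Cxcl2 was highest in them, and Cxcl5 and Ccl20 in AT2-BLM replicate 3 lay with AT2-PBS.

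*Cxcl15* was the most abundant of the genes, and its FPKM in replicates 1 to 3 of AT2-PBS were 1471, 1259.9 and 1139. Its AT2-BLM libraries had 1367, 1452 and 1165 FPKM, Atg5-/- AT2-PBS had 834, 699.8 and 927 FPKM and Atg5-/- AT2-BLM had 1075, 1366 and 1284 FPKM, in the same order of replicates as all values after it. The 3 uninjured Atg5-/- libraries lay below all 9 others, and the remaining 3 groups overlapped. *Cxcl15* fell by 0.65 on the log2 scale in Atg5-/- AT2-PBS against AT2-PBS (SE 0.18, limma adjusted p = 0.0310). It was higher by 0.60 in Atg5-/- AT2-BLM than in Atg5-/- AT2-PBS (SE 0.18, adjusted p = 0.0577), and its difference between AT2-BLM and AT2-PBS was 0.04 (SE 0.18). With scaling to the epithelial gene *Cdh1* the difference between the PBS groups was -0.26 and was not called, while the median of all genes was then 0.34. Relative to the median of all genes, it stayed between -0.77 and -0.60 over the 5 scalings. The difference between the Atg5-/- groups was 0.14 with scaling to *Cdh1* and was not called. Of 11 AT2 markers tested, 4 (*Abca3*, *Epcam*, *Etv5* and *Lamp3*) were also lower in Atg5-/- AT2-PBS than in AT2-PBS, beside 5.16% of all genes. Of these 4, 1 had an adjusted p under 0.05, and *Sftpb* was higher. The median marker differed by -0.38, and the part of such a shift in the *Cxcl15* level was not tested.

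*Cxcl5* was near the floor in AT2-PBS, at 0.483, 0.540 and 0.307 FPKM. After BLM the 3 libraries disagreed, with 62.0, 36.4 and 0.301 FPKM in AT2-BLM replicates 1 to 3. In Atg5-/- AT2-PBS it was listed at 21.5, 14.4 and 5.83 FPKM and in Atg5-/- AT2-BLM at 13.5, 11.1 and 8.53 FPKM. Thus every Atg5-/- library, treated with PBS or BLM, lay above every AT2-PBS library, and 2 of 3 AT2-BLM libraries lay above all the rest. *Cxcl5* rose by 3.33 on the log2 scale in AT2-BLM against AT2-PBS (SE 1.07, limma adjusted p = 0.0495) and by 3.21 in Atg5-/- AT2-PBS against AT2-PBS (SE 1.07, adjusted p = 0.0824). Without AT2-BLM replicate 3 the first of these was 5.07. That library had the highest summed markers of its group for mesothelial cells (60.7 FPKM against 1.71 and 13.3 FPKM in replicates 1 and 2). The same held for fibroblast and mural cells (39.6 against 6.25 and 13.7 FPKM) and for AT1 cells (3462 against 2681 and 2353 FPKM). It also held for club and ciliated cells (4973 against 2168 and 882 FPKM). Its lymphocyte sum (0.431 against 8.82 and 9.62 FPKM) and pan-leukocyte sum (107 against 153 and 206 FPKM) were the lowest of the group. AT2-BLM replicate 3 is also the only library of its group with Y-linked mRNA. Among libraries without that mRNA *Cxcl5* was 5.03 higher in AT2-BLM than in AT2-PBS on the log2 scale (n = 2 and 1), and among those with it the difference was -0.13 (n = 1 and 2). The part of these traits in the result was not tested beyond a fit with Y-linked mRNA as a covariate. In that fit the difference between the PBS groups was 2.06 and was not called.

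*Cxcl1* and *Cxcl2*, genes of 1 cluster that share the kappaB run shown above, had different patterns. AT2-PBS libraries had 10.1, 0.258 and 113 FPKM of *Cxcl1*, against 67.2, 53.4 and 11.4 FPKM in AT2-BLM, 24.4, 37.2 and 9.64 FPKM in Atg5-/- AT2-PBS and 27.5, 9.64 and 12.7 FPKM in Atg5-/- AT2-BLM. The uninjured AT2-PBS libraries alone spanned the whole range of the gene, all 4 groups overlapped, and *Cxcl1* was called in no comparison. Without AT2-PBS replicate 3 its difference between AT2-BLM and AT2-PBS was 3.26 in place of 1.62 and was called, and that between Atg5-/- AT2-PBS and AT2-PBS was 2.54 in place of 0.90 and was called. Without AT2-PBS replicate 2 the latter was -0.71.

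For *Cxcl2* the AT2-PBS libraries had 6.38, 0.162 and 27.0 FPKM and the AT2-BLM libraries 15.9, 16.4 and 4.27 FPKM. The level was 113, 85.6 and 73.2 FPKM in Atg5-/- AT2-PBS and 4.10, 9.10 and 8.73 FPKM in Atg5-/- AT2-BLM. The uninjured Atg5-/- libraries lay above all 9 others, and the other 3 groups overlapped. *Cxcl2* rose by 3.86 in Atg5-/- AT2-PBS against AT2-PBS (SE 0.87, limma adjusted p = 0.0104) and fell by 3.50 in Atg5-/- AT2-BLM against Atg5-/- AT2-PBS (SE 0.87, adjusted p = 0.0256). Its difference of 0.90 between AT2-BLM and AT2-PBS was not called. It was -0.31 without AT2-PBS replicate 2, and 1.98 and called without AT2-PBS replicate 3.

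*Ccl2*, the monocyte attractant, had 3.39, 0 and 0.165 FPKM in AT2-PBS against 1.90, 7.28 and 7.64 FPKM in AT2-BLM. The Atg5-/- libraries had 32.4, 25.6 and 6.85 FPKM with PBS and 1.99, 3.51 and 0.470 FPKM with BLM. The uninjured Atg5-/- libraries lay above those of AT2-PBS and of Atg5-/- AT2-BLM, and their lowest lay within the range of AT2-BLM. *Ccl2* rose by 3.47 in Atg5-/- AT2-PBS against AT2-PBS (SE 0.69, limma adjusted p = 0.00461) and fell by 2.82 in Atg5-/- AT2-BLM against Atg5-/- AT2-PBS (SE 0.69, adjusted p = 0.0238). The rise of 1.78 in AT2-BLM over AT2-PBS had an adjusted p of 0.0931. It was not called without AT2-PBS replicate 2 (1.39), AT2-PBS replicate 3 (1.50), AT2-BLM replicate 2 (1.54) or AT2-BLM replicate 3 (1.51). The difference was 3.00 between libraries with Y-linked mRNA (n = 1 and 2) and 0.16 between those without it (n = 2 and 1).

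*Cxcl10*, the interferon-induced T cell attractant, had 1.96, 1.15 and 8.02 FPKM in AT2-PBS against 5.44, 4.51 and 12.9 FPKM in AT2-BLM. In Atg5-/- AT2-PBS the values were 17.9, 30.9 and 6.01 FPKM and in Atg5-/- AT2-BLM 1.58, 2.29 and 2.06 FPKM. All Atg5-/- AT2-BLM libraries lay below all libraries of AT2-BLM and of Atg5-/- AT2-PBS, and the other groups overlapped. *Cxcl10* was the only gene of the 10 called lower in Atg5-/- AT2-BLM than in AT2-BLM, by -1.42 on the log2 scale (SE 0.59, limma adjusted p = 0.621). That call was lost without AT2-BLM replicate 3 (-1.01) and without Atg5-/- AT2-BLM replicate 1 (-1.32), 2 (-1.49) or 3 (-1.44). *Cxcl10* rose by 2.07 in Atg5-/- AT2-PBS against AT2-PBS (SE 0.59, adjusted p = 0.0403), and it fell by 2.45 in Atg5-/- AT2-BLM against Atg5-/- AT2-PBS (SE 0.59, adjusted p = 0.0220).

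*Ccl20*, the Ccr6 ligand, had 0.0730, 0 and 1.59 FPKM in AT2-PBS against 21.7, 15.0 and 1.47 FPKM in AT2-BLM. With *Atg5* loss the values were 3.71, 4.40 and 1.49 FPKM after PBS and 7.04, 10.7 and 2.71 FPKM after BLM. As with *Cxcl5*, AT2-BLM replicates 1 and 2 were the highest of all libraries, and replicate 3 lay within the range of AT2-PBS. *Ccl20* rose by 2.78 in AT2-BLM against AT2-PBS (SE 0.73, limma adjusted p = 0.0237). The difference was 4.15 among libraries without Y-linked mRNA (n = 2 and 1) and 0.62 among those with it (n = 1 and 2). In Atg5-/- AT2-PBS it was 1.50 higher than in AT2-PBS (limma adjusted p = 0.254), which was not called. It was called when replicate 3 of AT2-PBS (1.94) or of Atg5-/- AT2-PBS (1.84) was left out, and at the same value without AT2-BLM replicate 1 or 3.

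In AT2-BLM against AT2-PBS, the membrane-held *Cxcl16* and *Cx3cl1* changed less than the other members called. *Cxcl16* had 21.0, 15.6 and 18.7 FPKM in AT2-PBS, 29.3, 21.6 and 28.8 FPKM in AT2-BLM, 20.1, 21.8 and 18.2 FPKM in Atg5-/- AT2-PBS and 18.6, 19.3 and 20.1 FPKM in Atg5-/- AT2-BLM. All 3 AT2-BLM libraries lay above those of AT2-PBS and of Atg5-/- AT2-BLM. *Cxcl16* rose by 0.50 in AT2-BLM against AT2-PBS (SE 0.16, limma adjusted p = 0.0460). It was -0.43 in Atg5-/- AT2-BLM against AT2-BLM (SE 0.16, limma adjusted p = 0.618), under the fold needed for a call. The call after BLM was lost without AT2-PBS replicate 2 (0.39), AT2-BLM replicate 1 (0.43) or AT2-BLM replicate 3 (0.44). It was also lost under each of 4 other scalings, where relative to the median of all genes *Cxcl16* was 0.29 to 0.30 higher.

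*Cx3cl1* had 9.81, 4.18 and 7.99 FPKM in AT2-PBS against 14.8, 10.5 and 14.9 FPKM in AT2-BLM. The Atg5-/- values were 11.5, 9.97 and 7.84 FPKM with PBS and 12.9, 8.01 and 10.7 FPKM with BLM. All AT2-BLM libraries lay above all AT2-PBS libraries, and the other groups overlapped with both. *Cx3cl1* rose by 0.84 in AT2-BLM against AT2-PBS (SE 0.27, limma adjusted p = 0.0519), which was 0.62 and not called with scaling to *Cdh1*, and 0.64 and not called with scaling to a common sum. Without AT2-PBS replicate 2 it was 0.53 and still called. In AT2-BLM replicate 2 *Sftpc*, listed at 0 in the other libraries, made up 112570 of 549169 FPKM. Scaling to a common sum therefore lowers all other genes of that library, *Cx3cl1* and *Cxcl16* among them. Between AT2-BLM and AT2-PBS libraries with Y-linked mRNA (n = 1 and 2) *Cx3cl1* differed by 1.22 and *Cxcl16* by 0.72, and between those without it (n = 2 and 1) by 0.32 and 0.25.

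*Cxcl12*, ligand of Cxcr4 and mainly a stromal chemokine, was below the filter. Its levels were 0.347, 0.270 and 0.00695 FPKM in AT2-PBS, 0.428, 0.213 and 0.300 FPKM in AT2-BLM, 2.30, 1.53 and 0.963 FPKM in Atg5-/- AT2-PBS and 0.244, 0.457 and 0.255 FPKM in Atg5-/- AT2-BLM. The 3 uninjured Atg5-/- libraries lay above all 9 others. In the same libraries 8 fibroblast and mural markers, among them *Col1a1* and *Dcn*, summed to 90.4 to 101 FPKM, against 3.49 to 39.6 FPKM in the other 9, and their part in the *Cxcl12* level was not tested.

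The order of the group means differed between genes. AT2-BLM had the highest mean for 6 genes (*Cxcl15*, *Cxcl5*, *Cxcl1*, *Cxcl16*, *Ccl20* and *Cx3cl1*) and Atg5-/- AT2-PBS for 4 (*Cxcl2*, *Cxcl10*, *Cxcl12* and *Ccl2*). Of the 30 pairs of groups that are neighbours in these orders, 4 had ranges that did not overlap. They were Atg5-/- AT2-PBS below the next group for *Cxcl15*, AT2-PBS below the next for *Cxcl5*, and Atg5-/- AT2-PBS above the next for *Cxcl2* and *Cxcl12*. All other neighbours in the orders overlapped.

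**Figure D2:**
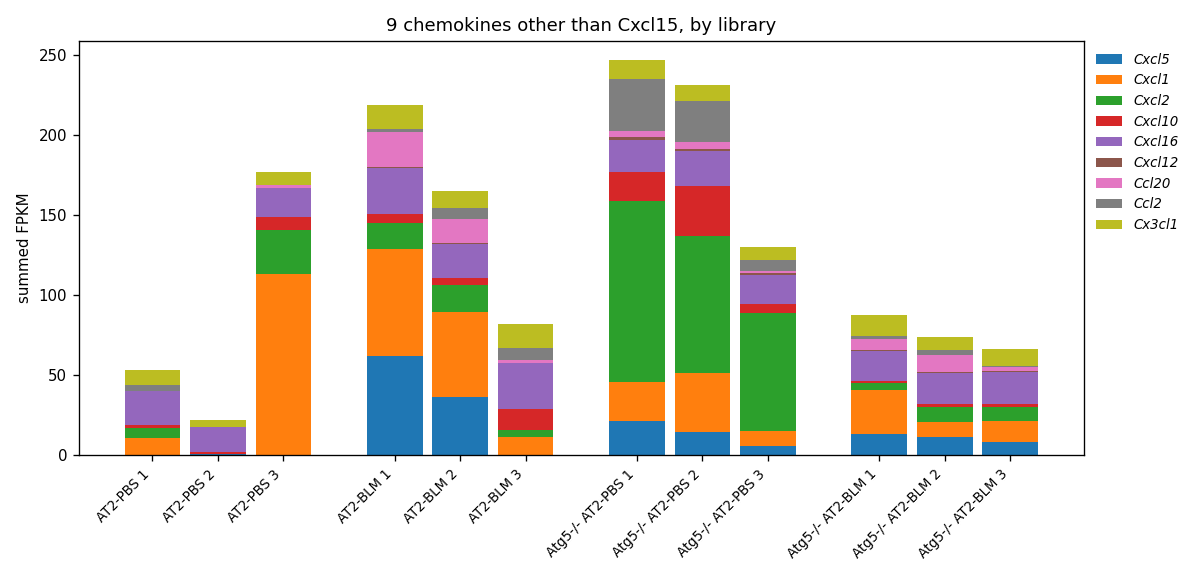
Summed FPKM of the 9 genes other than Cxcl15, stacked by gene, in each of the 12 libraries. The sum ran from 22.2 FPKM in AT2-PBS replicate 2 to 247 FPKM in Atg5-/- AT2-PBS replicate 1, and Cxcl2 was the largest share in all 3 Atg5-/- AT2-PBS libraries.

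Without *Cxcl15*, the summed FPKM of the 9 genes were 53.5, 22.2 and 177 in AT2-PBS and 219, 165 and 82.0 in AT2-BLM. They were 247, 231 and 130.0 in Atg5-/- AT2-PBS and 87.5, 74.1 and 66.3 in Atg5-/- AT2-BLM. The 3 Atg5-/- AT2-BLM libraries lay within the range of AT2-PBS.

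The comparison of AT2-BLM with AT2-PBS asks which chemokines change in AT2 cells after BLM. Higher were *Cxcl5*, *Ccl20*, *Ccl2*, *Cx3cl1* and *Cxcl16*, the first 3 by 1.78 to 3.33 on the log2 scale and the last 2 by under 1, and no member was lower. A gene was called where its p before adjustment was under 0.05 and its fold at least 1.4. Called were 5 of 9 members, beside 28.4% of all genes tested (20.6% higher and 7.77% lower), and 3 of the 5 had an adjusted p under 0.05, beside 17.4% of all genes. The median member differed by 1.03 and the median gene by 0.17. Ranges of the groups were apart for *Cxcl16* and *Cx3cl1*, 2 of 9 members, beside 40.2% of all genes. The count was 3 without AT2-PBS replicate 2 or without AT2-BLM replicate 3 (*Cxcl5*, *Ccl20* and *Cx3cl1* in both cases). Pan-leukocyte markers summed to 107 to 206 FPKM in AT2-BLM, and 7 of 8 were called higher, 1 of them with an adjusted p under 0.05. AT1 markers were higher for 3 of 6 (*Cav1*, *Hopx* and *Pdpn*, all with an adjusted p under 0.05), and liver transcripts for 6 of 7, none with an adjusted p under 0.05. Of 7 tested neutrophil markers *Ly6g* and *Retnlg* were higher, both with an adjusted p under 0.05. Of 10 macrophage markers *Cd68* and *Csf1r* were higher, 1 with an adjusted p under 0.05. Of 11 tested AT2 markers *Sftpb* was higher and *Abca3* and *Etv5* were lower. Club and ciliated cell markers were lower for 4 of 5 (*Cyp2f2*, *Scgb1a1*, *Scgb3a2* and *Tppp3*), 3 with an adjusted p under 0.05. The part of these markers in the result was not tested. Of all called genes 72.6% were higher, and 43.3% to 53.0% under the 4 other scalings.

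Atg5-/- AT2-PBS against AT2-PBS asks what *Atg5* loss does without injury. *Cxcl2*, *Ccl2*, *Cxcl5* and *Cxcl10* were higher by 2.07 to 3.86 and *Cxcl15* was lower by the values given above. These 5 of 9 members stand beside 19.3% of all genes called (14.1% higher and 5.16% lower), and the adjusted p was under 0.05 for 4 of them (11.2% of all genes). Ranges were apart for *Cxcl15*, *Cxcl5*, *Cxcl2* and *Ccl2*, 4 of 9 members, beside 28.9% of all genes. The median member differed by 1.50 and the median gene by 0.02. All Atg5-/- AT2-PBS libraries were without Y-linked mRNA, while AT2-PBS replicates 2 and 3 held it. Among libraries without it (n = 3 and 1) *Cxcl2*, *Ccl2*, *Cxcl5*, *Cxcl10* and *Cxcl15* differed by 3.61, 2.12, 3.17, 2.45 and -0.85. With Y-linked mRNA as a covariate the call of *Cxcl5* was lost and those of the other members named stayed. The part of this imbalance was not tested further. Of all called genes 73.2% were higher, and from 42.6% to 97.2% under the other scalings.

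Markers of other cell types moved with this comparison. In Atg5-/- AT2-PBS the summed FPKM of 10 macrophage markers were 992 to 1381 against 13.97 to 52.9 in AT2-PBS, and those of 8 neutrophil markers 520.0 to 1692 against 14.3 to 112. Called higher were 7 of 8 pan-leukocyte markers, 10 of 10 macrophage markers, 7 of 7 tested neutrophil markers and 5 of 5 tested fibroblast and mural markers. The share of all genes called higher was 14.1%. The pan-leukocyte gene *Ptprc*, which encodes the CD45 used in the sort, was listed at 8.46, 7.54 and 8.01 FPKM against 0.621, 0.0119 and 0.0646 FPKM. The neutrophil gene *Mpo* was listed at 0 in both groups, and *Ly6g* and *Ngp* were at 0 in all 3 AT2-PBS libraries. Liver transcripts such as *Alb* summed to 1552 to 2667 FPKM against 3.34 to 432 FPKM. Club and ciliated cell transcripts such as *Scgb1a1* summed to 23408.5 to 85012 FPKM against 4968 to 11774 FPKM. Of 5 club and ciliated markers tested, 4 were called higher. *Cxcl2*, *Ccl2* and *Cxcl10* are also made by leukocytes such as macrophages. The part of such cells, or of the other cell types named here, in the chemokine levels was not tested. Within Atg5-/- AT2-PBS, replicate 3 had the lowest *Ccl2*, *Cxcl2*, *Cxcl10* and *Cxcl5* of its group, the lowest pan-leukocyte and neutrophil sums and the highest macrophage sum.

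**Figure D3:**
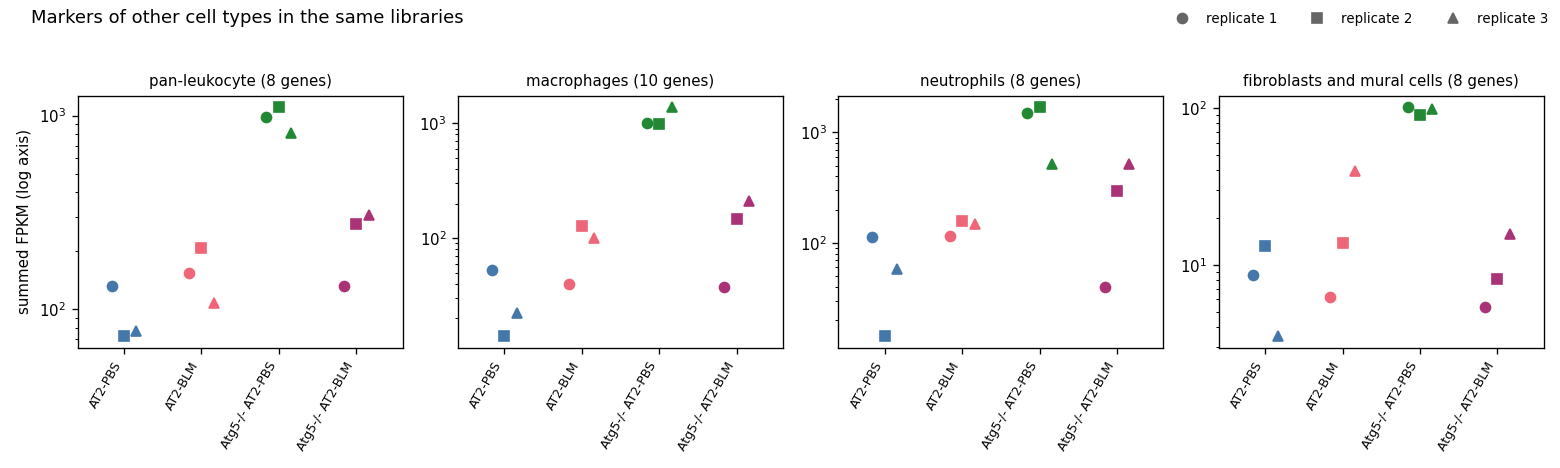
Summed FPKM of marker lists for other cell types in each library, on a logarithmic axis, with symbols for replicates 1 to 3. All 3 Atg5-/- AT2-PBS libraries were highest for each of the 4 lists, with pan-leukocyte sums of 809 to 1104 FPKM.

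Atg5-/- AT2-BLM against AT2-BLM asks what *Atg5* loss does after BLM. *Cxcl10* was the 1 member of 9 called, beside 5.16% of all genes (2.04% higher and 3.12% lower), and no member had an adjusted p under 0.05 (0.00937% of all genes, which is 1 gene). Ranges were apart for *Cxcl10* and *Cxcl16*, 2 of 9 members, beside 13.4% of all genes. The median member differed by -0.46 and the median gene by -0.05. AT2-BLM libraries decided the sign or the call of others. Without replicate 3 *Cxcl5* was 2.03 lower and *Ccl20* 1.44 lower in Atg5-/- AT2-BLM on the log2 scale and both were called, while *Cxcl10* was not. Among libraries with Y-linked mRNA (n = 2 and 1) *Cxcl5*, *Ccl20* and *Cxcl2* differed by 3.05, 1.42 and 0.91. Among those without it (n = 1 and 2) they differed by -1.74, -1.25 and -1.75. *Cxcl15* and *Cx3cl1* also changed sign between these sets, and *Cxcl1*, *Cxcl10*, *Cxcl16* and *Ccl2* were lower in both. Macrophage markers summed to 37.8 to 212 FPKM against 40.0 to 127 FPKM in AT2-BLM. Without AT2-BLM replicate 1, *Cxcl5* was 0.77 and *Ccl20* 0.16 higher in Atg5-/- AT2-BLM, and *Ccl2* was called at -1.64. Without AT2-BLM replicate 2, *Cxcl16* was called at -0.56 and *Cxcl5* was 0.39 higher. Of all called genes 39.6% were higher, and 48.2% to 79.6% under the other scalings.

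Atg5-/- AT2-BLM against Atg5-/- AT2-PBS gives the effect of BLM where *Atg5* is lost. *Cxcl2*, *Ccl2* and *Cxcl10* were lower and *Cxcl15* was higher. These 4 of 9 members stand beside 18.4% of all genes called (7.66% higher and 10.7% lower), and the 3 that were lower had an adjusted p under 0.05, beside 8.65% of all genes. The same 4 had ranges that did not overlap, beside 24.9% of all genes. The comparison shares its PBS libraries with the one above in which these 4 genes moved the opposite way, so the 2 are not independent. Pan-leukocyte sums fell from 809 to 1104 FPKM to 131 to 306 FPKM between these groups. Club and ciliated cell sums fell from 23408.5 to 85012 FPKM to 1174 to 2183 FPKM, with 5 of 5 tested markers called lower. The part of other cells was not tested. Atg5-/- AT2-BLM replicates 2 and 3 held Y-linked mRNA, and the Atg5-/- AT2-PBS libraries did not. Among libraries without it (n = 1 and 3) *Cxcl2*, *Ccl2*, *Cxcl10* and *Cxcl15* differed by -4.14, -2.67, -2.65 and 0.40. The same 4 were called with Y-linked mRNA as a covariate. Of all called genes 41.7% were higher, and 4.60% to 60.2% under the other scalings.

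**Figure D4:**
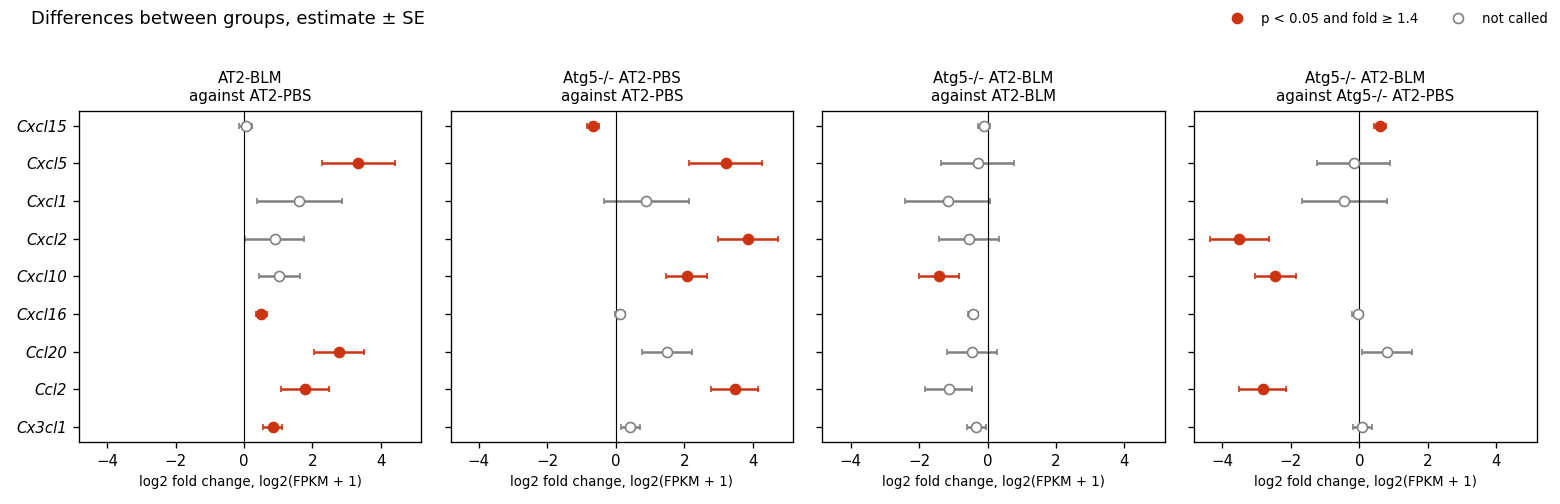
Difference of log2(FPKM + 1) between groups for the 9 members tested, as estimate ± SE from limma, in 4 comparisons. Filled red points were called (p under 0.05 and a fold of at least 1.4), with 5, 5, 1 and 4 members called from left to right, and each panel shares libraries with others.

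The difference in BLM effect between genotypes was tested as an interaction in the same fit. It was -4.60 for *Ccl2* (SE 0.97, limma adjusted p = 0.0147), -4.40 for *Cxcl2* (SE 1.23, adjusted p = 0.0482) and -3.48 for *Cxcl10* (SE 0.83, adjusted p = 0.0245). These 3 stayed called with each library left out in turn. *Cxcl5* at -3.50, *Cxcl16* at -0.55 and *Cxcl15* at 0.56 were called with adjusted p between 0.177 and 0.234. Together 6 of 9 members were called, beside 20.2% of all genes (5.02% higher and 15.2% lower), and 3 with an adjusted p under 0.05, beside 7.89% of all genes. *Cxcl5* was still called without Atg5-/- AT2-PBS replicate 3 (-3.98) or AT2-BLM replicate 3 (-5.24), and was not without any other library (-3.64 to -2.44). It was -1.76 and not called with Y-linked mRNA as a covariate. The count fell to 3 when replicate 2 of AT2-PBS, replicate 1 or 2 of Atg5-/- AT2-PBS or replicate 1 of AT2-BLM was left out. The median member differed by -2.05 and the median gene by -0.09. The marker sums that set Atg5-/- AT2-PBS apart enter this contrast too, with 7 of 8 pan-leukocyte and 10 of 10 macrophage markers called lower. Of all called genes 24.9% were higher, and 10.6% to 55.2% under the other scalings.

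Other chemokine ligands, 31 listed and 19 tested, gave the setting of these 9. After BLM 5 were higher and 1 was lower, so that 6 of 19 stand beside 28.4% of all genes called. *Cxcl3*, a neutrophil attractant next to *Cxcl15* in gene order, was 2.70, 1.76 and 3.31 FPKM in AT2-PBS and 30.3, 21.4 and 6.08 FPKM in AT2-BLM, a rise of 2.27 (SE 0.54, limma adjusted p = 0.0161). The mucosal chemokine *Cxcl17* was 84.1, 38.5 and 54.4 FPKM in AT2-PBS and 249.9, 295 and 129 FPKM in AT2-BLM, a rise of 1.90 (SE 0.33, adjusted p = 0.00374). Both had ranges apart, and both were lowest after BLM in replicate 3, as *Cxcl5* and *Ccl20* were. The others called were *Ccl7*, *Ccl9* and *Ccl22* (higher) and *Ccl27a* (lower).

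With *Atg5* loss and PBS, 15 of these 19 ligands were higher (14.1% of all genes) and none was lower, all 15 with an adjusted p under 0.05. Largest by the rule for named genes were the myeloid chemokine *Ccl6*, by 5.55, and the T cell attractant *Ccl5*, by 4.07. In Atg5-/- AT2-BLM against Atg5-/- AT2-PBS, 15 were lower (10.7% of all genes), led by *Ccl4* at -3.92 and *Ccl3* at -3.49, and *Cxcl17* and *Ccl25* were higher. In Atg5-/- AT2-BLM against AT2-BLM only *Ccl27a* was called, higher, with an adjusted p above 0.05. In the interaction 15 were lower (15.2% of all genes), with *Ccl6* at -4.74 and *Ccl7* at -4.25 named by the rule. Most of these ligands are known from myeloid and lymphoid cells. *Cxcl14* and *Ccl17* reached 1 FPKM only in Atg5-/- AT2-PBS, and *Ccl4* and *Xcl1* passed the filter only with libraries of that group. The counts in contrasts with these libraries are thus partly set by the filter. Leukocyte, fibroblast, liver and club cell transcripts all moved in the same libraries, and the part of any of them was not tested.

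Of 24 chemokine receptors listed, 11 reached the filter. With *Atg5* loss and PBS 10 of 11 were higher (14.1% of all genes), 9 with an adjusted p under 0.05 (11.2% of all genes in either direction). The largest were the lymph node homing receptor *Ccr7* at 3.32 and *Ccrl2* at 3.11. *Ccrl2*, which binds chemerin and does not signal as a classical chemokine receptor, was 1.17, 1.17 and 2.34 FPKM in AT2-PBS and 24.5, 20.8 and 17.1 FPKM in Atg5-/- AT2-PBS. Of the receptors for the genes described here, *Cxcr2* was at most 0.301 FPKM in AT2-PBS and 2.18 to 3.09 FPKM in Atg5-/- AT2-PBS. *Ccr6*, receptor of *Ccl20*, was called lower after BLM, at 2.04, 0.695 and 1.38 FPKM in AT2-PBS and 0.644, 0.632 and 0.185 FPKM in AT2-BLM, and *Ccr2* was called higher. Both had an adjusted p above 0.05.

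NF-kappaB factors are textbook inducers of *Cxcl1*, *Cxcl2*, *Cxcl5* and *Ccl20*. The list tested held 17 genes, these factors and their feedback inhibitors. After BLM 6 were higher and none was lower, beside 20.6% of all genes higher. *Relb* rose by 1.31 (SE 0.22, limma adjusted p = 0.00361), from 3.17 to 6.02 FPKM in AT2-PBS to 11.5 to 12.9 FPKM in AT2-BLM, and the inhibitor *Nfkbie* rose by 1.49 (SE 0.36, adjusted p = 0.0175). *Bcl3*, *Chuk*, *Nfkb2* and *Tnip1* were the others called. In Atg5-/- AT2-PBS against AT2-PBS, 5 were higher (14.1% of all genes), led by the feedback inhibitor *Tnfaip3* at 1.61 (SE 0.33, adjusted p = 0.00523) and *Nfkbie* at 1.24. In Atg5-/- AT2-BLM against AT2-BLM *Relb* alone was called, lower by -0.77 with an adjusted p of 0.607. In Atg5-/- AT2-BLM against Atg5-/- AT2-PBS *Tnfaip3* fell by 1.66 and *Nfkbia* by 1.58, both with an adjusted p under 0.05. In all 4 were lower there (10.7% of all genes), and 1, *Bcl3*, was higher (7.66% of all genes), by 0.87 (SE 0.24, limma adjusted p = 0.0419).

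Among receptors and adaptors of inducing cytokines, 21 tested, 3 were higher and 1 was lower after BLM, or 4 of 21 beside 28.4% of all genes called. *Ifngr2*, a chain of the interferon gamma receptor, rose by 1.44 (SE 0.18, limma adjusted p = 0.000871), with 18.2 to 21.4 FPKM in AT2-PBS and 52.9 to 62.2 FPKM in AT2-BLM, and the TNF receptor *Tnfrsf1b* rose by 1.01. *Il1r1* was the 1 called lower. With *Atg5* loss and PBS the bacterial lipoprotein receptor *Tlr2* rose by 3.33 (SE 0.24, limma adjusted p = 1.34e-05) and *Il6ra* by 1.57. In all 6 were higher and 2 lower, beside 14.1% and 5.16% of all genes. Of 10 interferon-signal factors tested, 4 were higher after BLM (20.6% of all genes), with *Irf7* at 2.57 and *Socs3* at 1.60. With *Atg5* loss and PBS 5 of the 10 were higher (14.1% of all genes), with *Irf7* at 3.59.

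The sheddases of *Cxcl16* and *Cx3cl1* were called in no comparison. *Adam10* was 10.9, 10.6 and 7.08 FPKM in AT2-PBS and 12.5, 12.3 and 15.6 FPKM in AT2-BLM, a difference of 0.47 (SE 0.23, limma adjusted p = 0.162), and that of *Adam17* was 0.18 (SE 0.19). *Dpp4*, which trims *Cxcl10* and *Cxcl12*, was called lower after BLM and with *Atg5* loss and PBS, and *Mmp2* and *Mmp9* rose by 1.70 and 2.23 in the latter. Among the 7 tested decay factors of chemokine mRNA, *Zfp36l2* rose by 1.26 with *Atg5* loss and PBS (adjusted p = 0.0361).

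The genes most alike in pattern were found for each member by the mean absolute difference of standardized log2(FPKM + 1) over the 12 libraries, where smaller is more alike. For *Cxcl2* they were *Nfkbia* and *Tnfaip3*, at 0.33 SD for both, against a median of 1.15 SD over all genes tested. For *Cxcl10* they were *Ccl7* (0.26 SD) and *Cyb5a* (0.32 SD), and for *Cxcl16* the autophagy cargo receptor *Sqstm1* (0.37 SD) and *Dctn2* (0.38 SD). *Ccl20* was closest to *Rnaset2a* and *Rnaset2b*, near-identical copies that may share fragments, *Cxcl5* to *C1ra* and *Steap4*, *Ccl2* to *Vrk1* and *Lgals1*, and *Cx3cl1* to *Tctn2* and *Med7*, all between 0.25 and 0.28 SD. *Cxcl15* was closest to *Cldn3* and *Pip5k1b* at 0.40 SD, and *Cxcl1* to *Cnot8* and *Wash1* at 0.44 and 0.46 SD, the least close of the 9. None of the 9 had another of the 9 as its closest gene.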

How the data were processed

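RNA of 12 sorted AT2 libraries was sequenced by the authors, and gene values were deposited as FPKM, in 1 table with a column per library. The submitters' processing notes name Trimmomatic 0.36, HISAT2 2.2.1.0, Cufflinks 2.2.1, HTSeq 0.9.1 and mm9, while the study text names STAR, and a DESeq normalization after Cufflinks. Which of these steps made the deposited values, and whether that normalization entered them, is not given in the sources used here. Read depth is unknown, since low values held no shared step from which reads could be recovered, so no counting interval is given, and only the spread between libraries sets the precision.

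Genes that reached 1 FPKM in 3 or more libraries were tested with limma 3.58.1 (R 4.3.3, trend on) on log2(FPKM + 1), a scale that understates changes of low genes. All 12 libraries entered 1 fit with 4 pairwise contrasts and their interaction, with Benjamini-Hochberg adjustment over all genes tested. A call needed p under 0.05 and a fold of at least 1.4. Groups came from the labels. From each related list and comparison the text names up to 2 genes, those with the largest change among genes called with an adjusted p under 0.05 and ranges apart, and any count of 5 or fewer. *Cxcr2*, *Adam10*, *Adam17* and the further NF-kappaB genes named were added after their values were seen. A gene that this rule names is not reported here. The list members, related lists and markers were chosen with earlier results of these data known. The steps were tested on simulated data. Alternatives varied the pseudocount, filter, scaling, trend, threshold, samples fitted, replicate block and Y-linked covariate, and left out each library. Promoter windows were matched by symbol to a RefSeq table on GRCm38.p6, another build than the files use, and protein sequences were not analysed here. The study text names a stranded kit and the labels name a kit without that word, and the strand setting of the counting is not given, so overlapping antisense genes cannot be told apart.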

Additional observations from a re-analysis of the deposited data

Results flagged for a closer look

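The effect of BLM differed between Atg5-/- and control cells for 6 of the 9 chemokines by the interaction term (limma, p under 0.05 before adjustment and a fold of at least 1.4), beside 20.2% of all genes tested. The difference was -4.60 for *Ccl2* (adjusted p = 0.0147), -4.40 for *Cxcl2* (adjusted p = 0.0482) and -3.48 for *Cxcl10* (adjusted p = 0.0245) on the log2 scale. For *Cxcl5* it was -3.50, for *Cxcl16* -0.55 and for *Cxcl15* 0.56, with adjusted p of 0.209, 0.177 and 0.234. The count was 3 when replicate 2 of AT2-PBS, replicate 1 or 2 of Atg5-/- AT2-PBS or replicate 1 of AT2-BLM was left out. Of the 12 fits that each left out 1 library, 10 lost the call of *Cxcl5*, 8 that of *Cxcl15* and 6 that of *Cxcl16*. The libraries of Atg5-/- AT2-PBS enter each of these values, and they are the ones with high leukocyte, fibroblast, liver and club cell transcripts. The part of those transcripts was not tested.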

How the results depend on the processing

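The count of chemokines called in AT2-BLM against AT2-PBS was 5, and 4 with quantile normalization or median-ratio scaling. It was 3 with scaling to *Cdh1*, scaling to a common sum, an adjusted p or a fold of at least 2 (3 to 7 with 1 library left out). In Atg5-/- AT2-BLM against AT2-BLM it was 1, and 0 with no filter, scaling to *Cdh1* or an adjusted p (0 to 2 with 1 library left out). The interaction gave 6, and 3 with an adjusted p (3 to 7 with 1 library left out). It gave 4 with quantile normalization, a fold of at least 2 or the Y-linked covariate, and 7 with a pseudocount of 0.1. With median-ratio scaling, scaling to *Cdh1*, a common sum or no filter it gave 5. The counts were 5 to 7 in Atg5-/- AT2-PBS against AT2-PBS and stayed at 4 in Atg5-/- AT2-BLM against Atg5-/- AT2-PBS when 1 library was left out. Under the other alternatives they were 4 to 6 and 3 to 5. With the replicate number as a block the counts were 5, 5, 1, 4 and 6, and the interaction lost *Cxcl15* and gained *Cx3cl1*. Deviations of same-numbered libraries correlated between -0.30 and 0.23. Differently numbered libraries were not set beside them, so this cannot decide whether the numbers pair the libraries. The column name of AT2-PBS replicate 3 also carries another number than its title.

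Directions turned only for differences that were not called. After BLM in controls *Cxcl15* was -0.28 with quantile normalization, -0.13 with median-ratio scaling, -0.20 with scaling to *Cdh1* and -0.19 with a common sum, and -0.0418 to 0.14 with 1 library left out, while *Cxcl2* ran from -0.31 to 1.98. Between the PBS groups *Cxcl16* was -0.0892 with a common sum and *Cxcl1* ran from -0.71 to 2.54. Between the BLM groups *Cxcl5* was 0.18 with a pseudocount of 0.1 and 0.30 with the Y-linked covariate, and *Cxcl15* was 0.0745 with scaling to *Cdh1* and 0.0759 with a common sum. With 1 library left out *Cxcl5* ran from -2.03 to 0.77, *Ccl20* from -1.44 to 0.16 and *Cxcl15* from -0.19 to 0.0022. Between the Atg5-/- groups *Cx3cl1* was -0.33 with scaling to *Cdh1*, *Cxcl16* 0.11 with a common sum, and *Cxcl5* 1.02 and *Cxcl1* 0.25 with the Y-linked covariate. There *Cxcl5* ran from -0.65 to 0.21, *Cxcl16* from -0.11 to 0.012 and *Cx3cl1* from -0.0525 to 0.26. The cause was not tested.

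Of 576 values of single chemokines under alternatives other than leaving out a library, 519 kept direction and call, 37 lost the call, 7 gained it and 13 turned.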
